A study of Mus musculus with 16 samples.

Results

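The set described here comprises 10 genes of simple and stratified epithelium, taken by symbol from a table of 24421 genes: the basal keratins Krt5, Krt14, Krt15 and Krt17, the simple-epithelium keratins Krt8 and Krt18, and Trp63, Perp, Epcam and Cdh1. All 10 were found and all 10 passed the filter on low counts, which left 15641 genes for testing. Poly(A) RNA was sequenced from lumbar dorsal root ganglia of C57BL/6 mouse embryos at embryonic day 13.5. The ko-alpha3 group (4 libraries) lacked importin alpha3, the KO-beta group (4 libraries) lacked the 3′UTR of importin beta 1, and the wild types were 4 wt-alpha3 and 4 WT-beta libraries, pooled by the submitters into 1 set of 8. The labels give no promoter, Cre driver or embryo number behind a library. It is therefore unknown how far the spread between libraries, on which every p-value rests, is technical.

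Keratins form the intermediate filaments of epithelial cells as pairs of a type I and a type II protein. Krt5 (type II) pairs with Krt14 or Krt15 (type I) in the basal layer of the epidermis, whereas Krt8 (type II) pairs with Krt18 (type I) in simple epithelia such as those of liver and gut. Dorsal root ganglia hold neurons, glia, vessels and connective tissue, and skin keratins are not among the usual markers of these cells. In bulk libraries, fewer cells of a type and less RNA per cell cannot be told apart.

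The targeted gene of the first line, Kpna4, which encodes importin alpha3, was lower in ko-alpha3 than in the 8 wild types by a log2 fold change of -6.46 ± 0.13 (SE), with an adjusted p of 1.34e-14 in edgeR. Library totals lay between 22896330 and 24850289 reads in ko-alpha3, between 21203919 and 26873361 in KO-beta, and between 19682595 and 25841307 in the wild types. Reads from Y-linked genes were almost absent from ko-alpha3 libraries 42 and 81 and from all 4 WT-beta libraries, and present in the other 10. Sensory neuron markers summed to 11620 to 15222 CPM (read counts scaled by library size) in ko-alpha3 and 7878 to 15550 CPM in the wild types, so neuronal RNA was abundant in every library.

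In ko-alpha3 ganglia, 9 of the 10 genes had means between 16.0% and 40.4% of the wild-type mean, the exception being Cdh1 at 77.7%. None of the 10 was called by edgeR's quasi-likelihood test at an adjusted p of 0.05, where 0.00639% of all genes tested were called (1 gene, Kpna4). At an unadjusted p of 0.05, 9 of the 10 were lower, against 6.63% of all genes tested. DESeq2 called 5 of the 10 lower (Krt5, Krt14, Krt17, Trp63 and Perp), against 0.652% of all genes, and limma-voom called 0, against 0.00639%. The median log2 fold change over the 10 genes was -1.94, against -0.01 over all genes tested.

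The genes lie on 6 chromosomes in GRCm38.p6. Krt14 (chr11:100203162-100207510), Krt15 (chr11:100131759-100135949) and Krt17 (chr11:100256215-100261029), all type I, are on the minus strand of chromosome 11. Krt5 (chr15:101707069-101712905, minus strand), Krt8 (chr15:101996711-102004342, minus strand) and Krt18 (chr15:102028216-102032026, plus strand) are on chromosome 15, where the type I Krt18 lies beside the type II Krt8. The others are Trp63 (chr16:25683763-25892088), Perp (chr10:18845071-18857073), Epcam (chr17:87635979-87651127) and Cdh1 (chr8:106603350-106670247), all on the plus strand.

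Reads can be shared between keratins. Of the 50-base stretches in Krt8 transcripts, 29.7% also occur in transcripts of another gene, 26.9% in the pseudogene Krt8-ps, so its count is uncertain. The share was 13.9% for Krt14 (11% with Krt16, which had 1 read in all 16 libraries) and 12.2% for Krt5 (6.98% with Krt6a), 3.99% for Krt17, and below 1% for Krt15 and Krt18. Trp63, Perp, Epcam and Cdh1 shared none. Exons of Krt5 and Krt8 overlap the opposite-strand genes Gm44323 and Gm36026, whose reads cannot be told apart from theirs if counting ignored strand.

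Promoter windows from RefSeq, 250 bases before to 50 after the start in GRCm38.p6, were matched for 5 of the 10 genes: Krt5, Krt14, Krt8, Krt18 and Epcam. Both strands were searched for 5 motifs. The E-box CAGGTG, to which Snail and Zeb repressors of epithelial genes bind, was found in 4 of the 5 windows, all but Krt14, and in 20.2% of 32851 promoters. The sites are shown because this motif is shared by basal and simple-epithelium members alike; capitals mark CAGGTG or its reverse complement, each read 5′ to 3′ along the gene's strand.
Krt5, chr15:101713021-101713040, minus strand: cactgtgCAGGTGtgctggg
Krt8, chr15:102004441-102004460, minus strand: ctgccctCACCTGagtcccg
Krt18, chr15:102027995-102028014, plus strand: ctaacacCACCTGctatcct
Epcam, chr17:87635785-87635804, plus strand: tagggccCACCTGctggagg
Epcam, chr17:87635953-87635972, plus strand: taaaaccCAGGTGtggagga

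A loose form of the p53-family site was found in 3 of the 5 windows and in 70.2% of all promoters, so most promoters hold one by its letters alone. The match in Krt5, a gene that p63 is known to activate, is shown with the match in capitals.
Krt5, chr15:101712982-101713009, minus strand: ctgccccCCAGGCATGCCCAGcccacta
The other motifs were each found in 1 of the 5 windows: TATAAA in Krt8 (13.6% of all promoters), GGGCGG in Epcam (35.7%) and GCCNNNGGC in Krt18 (16.6%), where it overlaps the p53-family match. A match is a description of the letters and no evidence that a factor binds there.

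**Figure D1:**
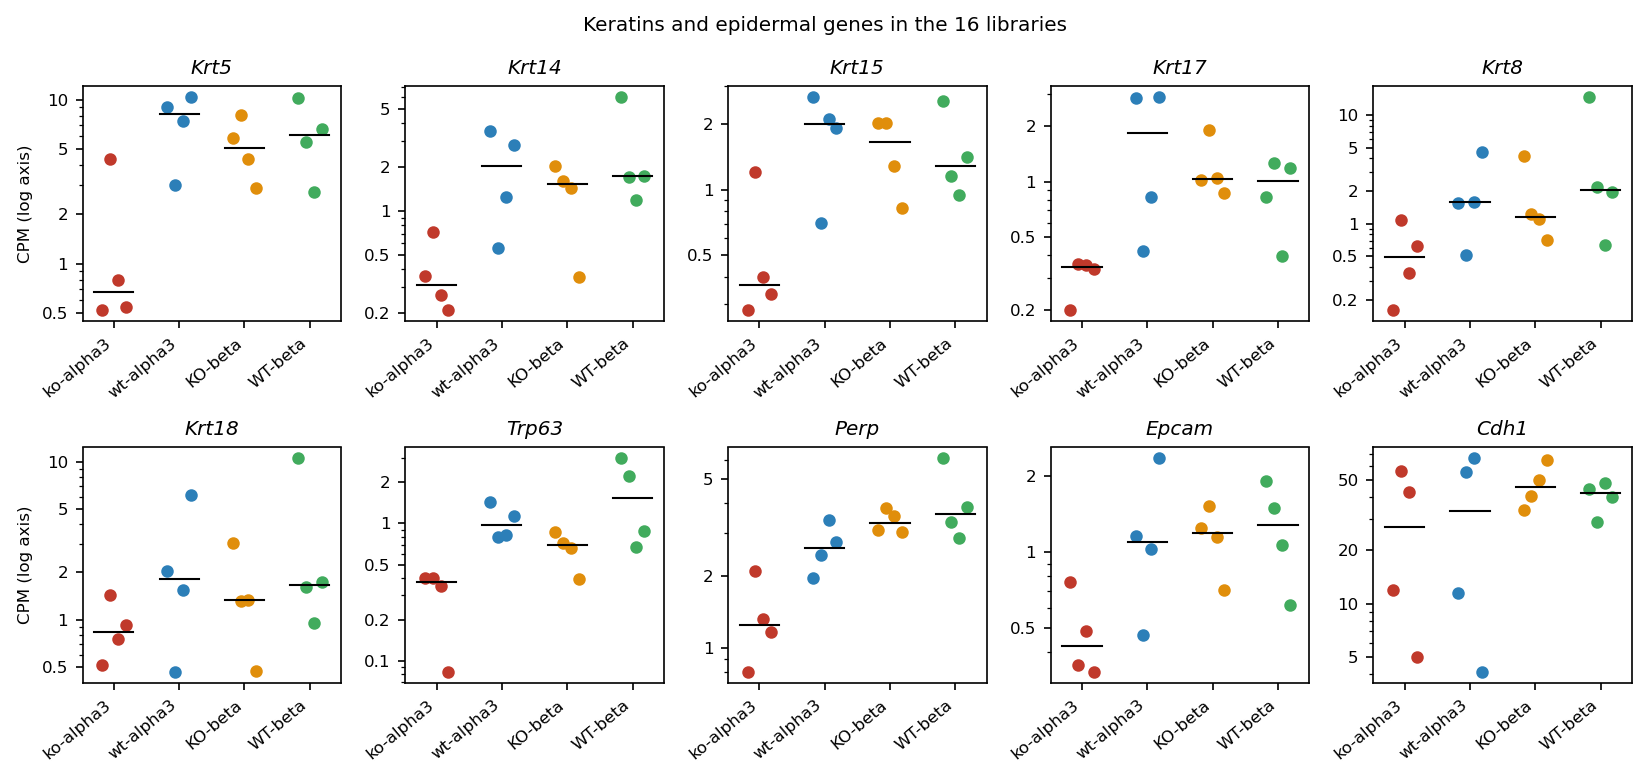
CPM of each of the 10 genes (log axis) in every library, with ko-alpha3 left of wt-alpha3 and KO-beta left of WT-beta; each point is a library and each bar a group median. Krt17 and Trp63 in ko-alpha3 lay below all 8 wild types, whereas the Cdh1 groups overlapped along their whole range.

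Values of single genes are CPM after TMM scaling, and adjusted p-values are from edgeR over all genes tested. The basal keratins were lower in ko-alpha3 libraries on average, and for Krt5 and Krt15 library 50 lay apart from the rest. Krt5, the type II keratin of the epidermal basal layer, had 0.519, 4.33, 0.796 and 0.543 CPM in ko-alpha3 libraries 42, 50, 75 and 81, against a lowest, median and highest value of 2.74, 7.0 and 10.4 CPM in the 8 wild types. Library 50 therefore lay within the wild-type range, while the other 3 were below all 8 wild types. The means were 1.55 ± 1.86 CPM in ko-alpha3 and 6.86 ± 2.99 CPM in the wild types (SD, n = 4 and 8), a log2 fold change of -2.15 ± 0.59 (SE) with an adjusted p of 0.33 in edgeR.

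Krt14, the type I partner of Krt5 and the keratin most widely used to mark basal cells, had 0.360, 0.714, 0.265 and 0.209 CPM in the same 4 ko-alpha3 libraries, against 0.561, 1.72 and 6.04 CPM as the lowest, median and highest wild types. The groups overlapped only through ko-alpha3 50 and the lowest wild type, wt-alpha3 54. The means were 0.387 ± 0.227 CPM in ko-alpha3 and 2.35 ± 1.76 CPM in the wild types, and the log2 fold change was -2.60 ± 0.64 with an adjusted p of 0.33 in edgeR.

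Krt15, another type I keratin of basal cells, known also from hair follicle stem cells, had 0.280, 1.21, 0.398 and 0.334 CPM in ko-alpha3, against 0.701, 1.67 and 2.68 CPM in the wild types (lowest, median, highest). As for Krt5, library 50 alone reached the wild-type range. The log2 fold change was -1.61 ± 0.47 and the adjusted p 0.33 in edgeR. Leaving out ko-alpha3 50 raised the number of the 10 genes called to 3, namely Krt5 (-3.45, adjusted p of 0.0233), Krt15 (-2.30, adjusted p of 0.0396) and Perp (-1.59, adjusted p of 0.0353), at a background of 0.367% of genes called lower.

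Krt17, a type I keratin of periderm, hair follicles and injured epidermis, had 0.200, 0.357, 0.354 and 0.334 CPM in ko-alpha3, against 0.397, 1.01 and 2.90 CPM in the wild types. All 4 ko-alpha3 libraries were thus below all 8 wild types, although the gap to the lowest, WT-beta 410, was small. The log2 fold change was -2.09 ± 0.56 with an adjusted p of 0.33 in edgeR. Each ko-alpha3 value rested on 5 to 8 reads.

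Trp63, which encodes the p53-family transcription factor p63 needed for stratified epithelium to form, also separated the groups: it had 0.400, 0.402, 0.354 and 0.0835 CPM in ko-alpha3, against 0.674, 1.01 and 2.98 CPM in the wild types. The lowest value, in library 81, was 2 reads, and the others were 8 to 10 reads. The log2 fold change was -2.13 ± 0.49 with an adjusted p of 0.33 in edgeR. Krt17 and Trp63 were the 2 of 10 genes whose ko-alpha3 values all lay below the wild types, against 0.416% of all genes tested.

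The simple-epithelium keratins had SDs above their means in the wild types. Krt8 had 0.160, 1.07, 0.354 and 0.627 CPM in ko-alpha3, against 0.514, 1.77 and 14.7 CPM in the wild types, so ko-alpha3 50 and 81 lay within the wild-type range. Krt18, its partner, had 0.519, 1.43, 0.751 and 0.919 CPM in ko-alpha3, against 0.468, 1.66 and 10.5 CPM in the wild types, and here every ko-alpha3 library lay within that range. The log2 fold changes were -2.65 ± 0.93 for Krt8 (adjusted p of 0.366) and -1.79 ± 0.76 for Krt18 (adjusted p of 0.425) in edgeR.

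The highest value of both keratins was in WT-beta 399. Without that library the log2 fold changes were -1.74 for Krt8 and -1.19 for Krt18. The same library had the highest summed level of 12 liver genes, a tissue whose hepatocytes make Krt8 and Krt18, at 5269 CPM. That sum ranged from 16.8 to 130 CPM in ko-alpha3 and from 23.5 to 5269 CPM in the wild types, and its part in the result was not tested.

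Perp and Epcam encode membrane proteins. Perp, a p63 target found in desmosomes of stratified epithelium, had 0.799, 2.10, 1.33 and 1.17 CPM in ko-alpha3, against 1.96, 3.09 and 6.12 CPM in the wild types, and only library 50 reached that range. Its log2 fold change of -1.31 ± 0.30, with an adjusted p of 0.33 in edgeR, was the smallest of the 9 genes and had the smallest SE. Epcam, an adhesion molecule of simple and embryonic epithelia, had 0.759, 0.357, 0.486 and 0.334 CPM in ko-alpha3, against 0.468, 1.12 and 2.36 CPM in the wild types. Here library 42, not 50, was the highest of the knockouts, and it and library 75 lay within the wild-type range. The log2 fold change was -1.37 ± 0.41, with an adjusted p of 0.33 in edgeR.

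Cdh1, which encodes E-cadherin of epithelial adherens junctions, overlapped fully between the groups. It had 11.9, 56.3, 42.4 and 5.01 CPM in ko-alpha3, against 4.13, 42.0 and 66.1 CPM in the wild types. Both groups spanned almost the same range, with ko-alpha3 42 and 81 and wt-alpha3 45 and 79 holding the 4 lowest values of the 16 libraries. The means were 28.9 ± 24.4 CPM in ko-alpha3 and 37.2 ± 21.2 CPM in the wild types, a log2 fold change of -0.36 ± 0.62 with an adjusted p of 0.876 in edgeR.

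**Figure D2:**
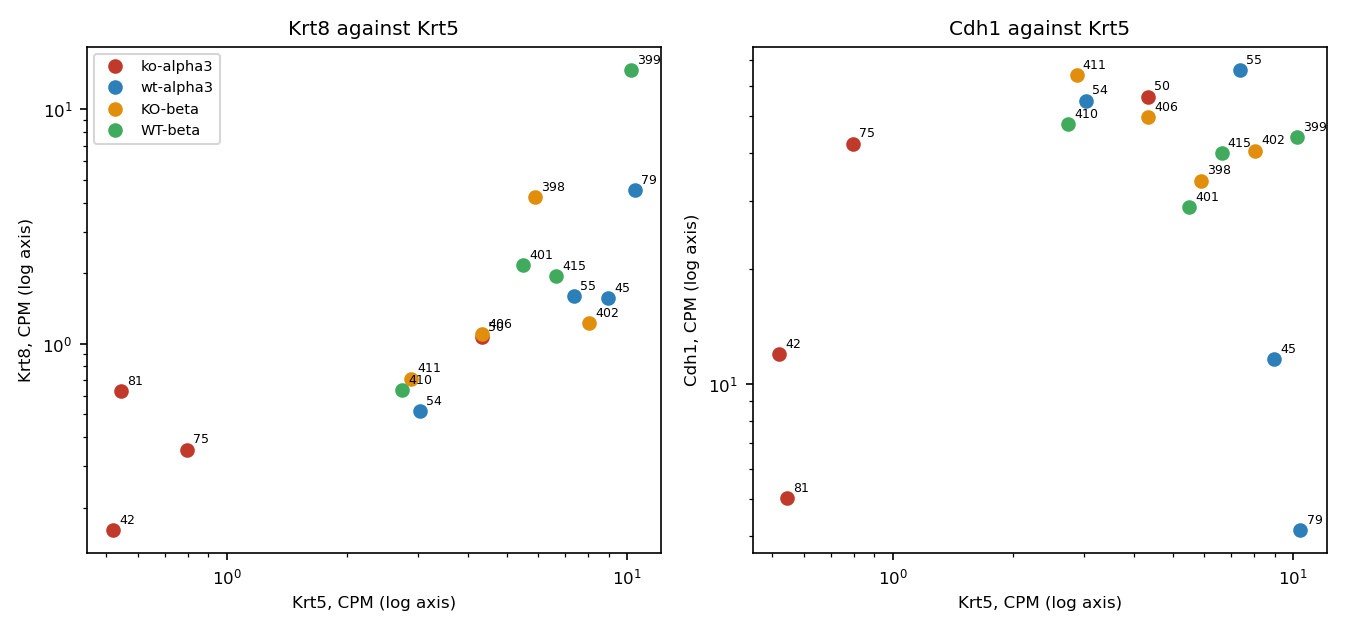
CPM of Krt8 (left) and of Cdh1 (right) against CPM of Krt5 in the 16 libraries, on log axes, with the library number beside each point. Krt8 was low where Krt5 was low, whereas Cdh1 was low in ko-alpha3 42 and 81, where Krt5 was lowest, and also in wt-alpha3 45 and 79, where Krt5 was among the highest.

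Across the 16 libraries the other 9 genes ranked together and Cdh1 did not, as the plot of Krt8 and Cdh1 against Krt5 shows. Spearman's rho between pairs of the 9 genes ran from 0.476 (Krt18 with Perp) to 0.924 (Krt8 with Krt18), whereas rho with Cdh1 ran from -0.335 (Krt18) to 0.321 (Perp). These values are descriptions over 16 libraries that share the knockout groups and their makeup, and the 9 genes were separated from Cdh1 after the values had been seen. The 9 genes summed to 4.00, 12, 5.08 and 4.55 CPM in ko-alpha3, to 23.4, 22.2, 15.9 and 10.3 CPM in KO-beta, to 26.2, 9.40, 19.9 and 35.0 CPM in wt-alpha3 and to 55.9, 20.4, 11.5 and 19.97 CPM in WT-beta. Libraries 42, 75 and 81 of ko-alpha3 were among the 4 lowest for 8, 9 and 8 of the 9 genes, and library 50 for 2 of them. Outside ko-alpha3, wt-alpha3 54 was among the 4 lowest for 4 genes, KO-beta 411 for 3, and wt-alpha3 45 and WT-beta 410 for 1 each. At the other end, WT-beta 399 was among the 4 highest for 8 of the 9 genes, wt-alpha3 79 for 7 and wt-alpha3 45 for 6.

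The genes most like Krt5 over the 16 libraries, among 14176 genes with a mean of at least 1 CPM, were Krt7 (rho of 0.903), a keratin of simple and glandular epithelium, Mpo (0.891), Gabrp (0.879), Pycard (0.876) and Slc6a9 (0.874). Those most like Krt8 were Grb7 (0.935), Hnf4a (0.929), a liver and gut transcription factor, Rbp4 (0.918), Trim30a (0.912) and Pycard (0.909). For Cdh1, looked up after its values had been seen, the genes were Ctsl (0.976) and Ogn (0.965), followed by Hspb8, Ptdss1 and Tspan7. No gene of the set of 10 was among them, since members were left out of this search.

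Per length of exon, the wild-type levels ran from Cdh1 down to Trp63. Cdh1 averaged 6.32 ± 5.34 RPKM (CPM per kilobase of exon) in ko-alpha3 and 8.13 ± 4.63 RPKM in the wild types, the highest of the 10 in both. Krt5 followed, with 0.704 ± 0.846 RPKM in ko-alpha3 and 3.12 ± 1.36 RPKM in the wild types. Krt18 (2.17 RPKM), Krt8 (1.77), Perp (1.71), Krt14 (1.34), Krt15 (0.956), Krt17 (0.861) and Epcam (0.577) came next in the wild types, and neighbours in that order differed by less than their SDs. Trp63 was lowest, at 0.0369 ± 0.0182 RPKM in ko-alpha3 and 0.163 ± 0.0977 RPKM in the wild types.

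The KO-beta values of the 10 genes lay mostly within the wild-type range. At an adjusted p of 0.05, edgeR, DESeq2 and limma-voom each called 0 of the 10, against 0%, 0.00639% and 0% of all genes tested. No gene of the 10 had all 4 KO-beta values below the wild types, against 0.0639% of all genes. At an unadjusted p of 0.05 edgeR had 1 of the 10 lower (Trp63), against 1.63% of all genes tested. Krt5 had 5.88, 8.04, 4.34 and 2.88 CPM in KO-beta libraries 398, 402, 406 and 411, all within the wild-type range of 2.74 to 10.4 CPM. Trp63 had 0.866, 0.719, 0.667 and 0.394 CPM in KO-beta, against 0.674 to 2.98 CPM in the wild types, with libraries 406 and 411 below the lowest wild type and a log2 fold change of -1.05 ± 0.44 with an adjusted p of 0.932 in edgeR. The means of Krt18 and Krt8 in KO-beta were 49.4% and 52.4% of the wild-type mean, and those of Krt15, Krt17, Epcam and Perp lay between 90.6% and 101%. The KO-beta medians of Krt18 and Krt8 were 79.5% and 65.6% of the wild-type median. Without WT-beta 399, the highest wild type for both, their log2 fold changes in KO-beta were -0.41 and -0.017.

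**Figure D3:**
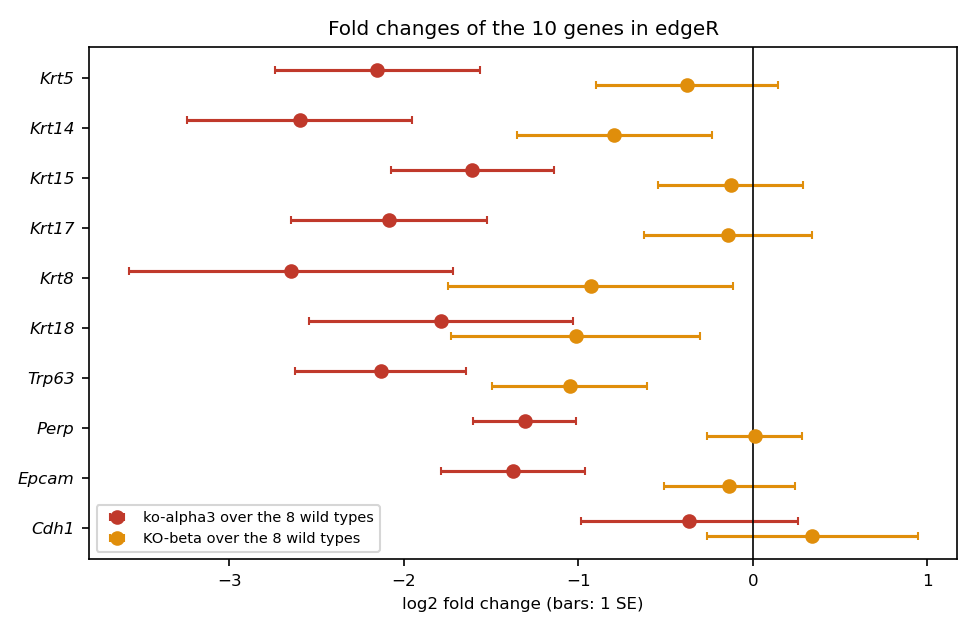
Log2 fold changes of the 10 genes in edgeR with bars of 1 SE, for ko-alpha3 over the 8 wild types and, below each, KO-beta over the same 8 wild types. In ko-alpha3 the values ran from -2.65 (Krt8) to -0.36 (Cdh1); in KO-beta they ran from -1.05 (Trp63) to 0.34 (Cdh1).

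For the remaining genes the KO-beta values had log2 fold changes within 1.5 SE of 0. Krt14 had 2.03, 1.61, 1.43 and 0.355 CPM in KO-beta libraries 398, 402, 406 and 411, of which the last lay below the lowest wild type at 0.561 CPM. Its log2 fold change was -0.80 ± 0.56. Krt8 had 4.22, 1.23, 1.10 and 0.710 CPM in KO-beta, with a log2 fold change of -0.93 ± 0.82, and Krt18 had 3.05, 1.31, 1.33 and 0.473 CPM, with -1.01 ± 0.71. For both, library 398 was the highest and 411 the lowest, and all values lay within the wild-type range. Krt15 (0.828 to 2.03 CPM), Krt17 (0.867 to 1.90 CPM), Perp (3.04 to 3.81 CPM) and Epcam (0.710 to 1.52 CPM) also stayed within that range, with log2 fold changes of -0.13 ± 0.42, -0.14 ± 0.48, 0.01 ± 0.27 and -0.13 ± 0.37. Cdh1 had 33.9, 40.7, 49.8 and 64.2 CPM in KO-beta, so the library lowest in the basal keratins, 411, was the highest in Cdh1, and its log2 fold change was 0.34 ± 0.60.

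The comparisons of the knockouts share their 8 wild types, so the difference between them was tested with each knockout set against its own line. By that contrast, edgeR called 0 of the 10 genes, against 0.00639% of all genes called, and 3 of the 10 were lower at an unadjusted p of 0.05, against 0.703% of all genes. Those 3 were Krt5 (-2.03 ± 0.89), Krt15 (-1.76 ± 0.72) and Krt17 (-2.87 ± 0.78 on the log2 scale), each with an adjusted p of 0.996 in edgeR. KO-beta libraries had Y-linked reads and WT-beta libraries almost none, so in that line knockout and Y-linked reads cannot be told apart. For Krt17, wt-alpha3 averaged above WT-beta by a log2 difference of 0.92 ± 0.52, and for Krt8 below it by -1.25 ± 0.89. Between these wild-type groups edgeR called 0 of the 10, against 0.0192% of all genes, with Perp alone lower at an unadjusted p of 0.05, against 2.07% of all genes.

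Within each wild-type group the libraries differed widely. Krt5 had 8.97, 3.04, 7.37 and 10.4 CPM in wt-alpha3 libraries 45, 54, 55 and 79, and 10.2, 5.49, 2.74 and 6.63 CPM in WT-beta libraries 399, 401, 410 and 415. Krt8 had 1.56, 0.514, 1.598 and 4.53 CPM in the same wt-alpha3 libraries and 14.7, 2.17, 0.635 and 1.94 CPM in the WT-beta libraries. The lowest library of each group, wt-alpha3 54 and WT-beta 410, was thus the same for both keratins. Trp63 had 1.44, 0.795, 0.825 and 1.13 CPM in wt-alpha3 and 2.98, 2.20, 0.674 and 0.884 CPM in WT-beta, and its lowest libraries were again 54 and 410. Cdh1 had 11.6, 55.0, 66.1 and 4.13 CPM in wt-alpha3 and 44.0, 29.0, 47.8 and 40.1 CPM in WT-beta, so its spread was wide in wt-alpha3, where libraries 45 and 79 were low, and narrow in WT-beta.

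Because the wild types differed among themselves, the ko-alpha3 comparison was repeated without 4 of them. The 4, wt-alpha3 45 and 79 and WT-beta 399 and 401, were picked for high markers of other tissues in earlier results of these data. They were not the highest in every list here: spinal cord genes summed to 16.8 CPM in WT-beta 399 and 41.1 CPM in WT-beta 415. They were also the 4 wild types with the highest sums of the 9 genes (26.2, 35.0, 55.9 and 20.4 CPM). The next was WT-beta 415, at 19.97 CPM. Leaving these 4 out therefore lowers the wild-type level of the 9 genes by selection. The 9 genes other than Cdh1 then had log2 fold changes from -1.67 (Krt5) to -0.36 (Krt18), and 6 of the 9 were lower at an unadjusted p of 0.05, against 9.79% of all genes. Against wt-alpha3 alone, the 9 genes ran from -2.48 (Krt17) to -0.97 (Perp), with 7 of the 9 lower at that threshold, against 3.93% of all genes. A term for Y-linked reads left the range at -2.58 to -1.27, with all 9 lower at that threshold, against 6.22% of all genes. Among the wild types this term divides wt-alpha3 from WT-beta exactly, so Y-linked reads and line cannot be told apart there. Without the 4 libraries lowest in Cdh1, an alternative added after the values had been seen, the range was -2.36 (Krt8) to -0.90 (Krt15), with 5 of the 9 at that threshold, against 1.57% of all genes, and adjusted p-values of 1.

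Genes that work with keratins in epithelium were lower in part, and 0 genes of each list below were called by edgeR. These lists, like the set of 10, were chosen with earlier results of these data known, and their counts cover only the genes that passed the filter. Over all genes tested in ko-alpha3, 8047 of 15641 had a negative log2 fold change, 6.63% were lower and 4.21% higher at an unadjusted p of 0.05, and 0.00639% were called. In the desmosome, the junction to which keratin filaments attach, 9 of 10 genes tested had a negative log2 fold change in ko-alpha3 and 7 had an unadjusted p under 0.05, against 6.63% of all genes, with a median of -1.10. Dsp, which encodes desmoplakin, the protein that ties keratins to the desmosome, averaged 0.747 ± 0.165 CPM in ko-alpha3 and 3.31 ± 2.51 CPM in the wild types (-2.15 ± 0.56). Pkp3, Ppl and Dsc2 had log2 fold changes of -1.72 ± 0.42, -1.56 ± 0.53 and -1.44 ± 0.43. The 1 gene with a positive value was Jup (0.16 ± 0.12), which averaged 395 CPM over all libraries and held most reads of the list.

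The hemidesmosome and basement membrane, which anchor basal cells, had 8 of 13 genes negative, 2 lower and 1 higher at an unadjusted p of 0.05, and a median of -0.20. Its counts of negative and higher genes were near the shares over all genes. Col17a1, a hemidesmosome collagen, had a log2 fold change of -1.14 ± 0.45, and Lama3, a chain of epithelial laminin, -0.79 ± 0.37. Itga6, an integrin subunit that neurons and glia also express, averaged 121 ± 9.89 CPM in ko-alpha3 and 106 ± 8.93 CPM in the wild types. Of the epithelial junction and surface genes, 12 of 12 tested were negative and 7 had an unadjusted p under 0.05 (median of -0.998). Among them, the tight-junction claudins Cldn4 and Cldn3 had log2 fold changes of -2.51 ± 0.61 and -1.13 ± 0.40.

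Of the transcription and splicing factors of epithelium, 10 of 12 were negative and 4 had an unadjusted p under 0.05, with a median of -0.40. Esrp1, an epithelial splicing regulator, had a log2 fold change of -1.90 ± 0.49, and Tfap2c, a transcription factor of early epidermis, -2.22 ± 0.80. The 2 positive genes were Tfap2a (0.35 ± 0.18) and Elf3 (0.11 ± 0.26). Among simple-epithelium keratins outside the set, Krt7 averaged 0.437 ± 0.401 CPM in ko-alpha3 and 1.76 ± 0.914 CPM in the wild types, and Krt19 averaged 0.580 ± 0.658 CPM in ko-alpha3 and 1.81 ± 1.04 CPM in the wild types.

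Genes of the upper, differentiated layers of the epidermis were in part near the detection limit. Of 14 found, 7 passed the filter, with a median log2 fold change of -0.33 in ko-alpha3 and 1 gene (Grhl3, a transcription factor of the skin barrier, -0.98 ± 0.40) at an unadjusted p under 0.05. Ivl, which encodes involucrin of the cornified envelope, reached at most 2 reads in any library, and Krt6a was at 0 reads in ko-alpha3 and at most 2 elsewhere. Krt10, the type I keratin of suprabasal cells, had the most reads of the list, with 7.23 ± 0.440 CPM in ko-alpha3 and 7.34 ± 1.35 CPM in the wild types, a log2 fold change of -0.02 ± 0.13.

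**Figure D4:**
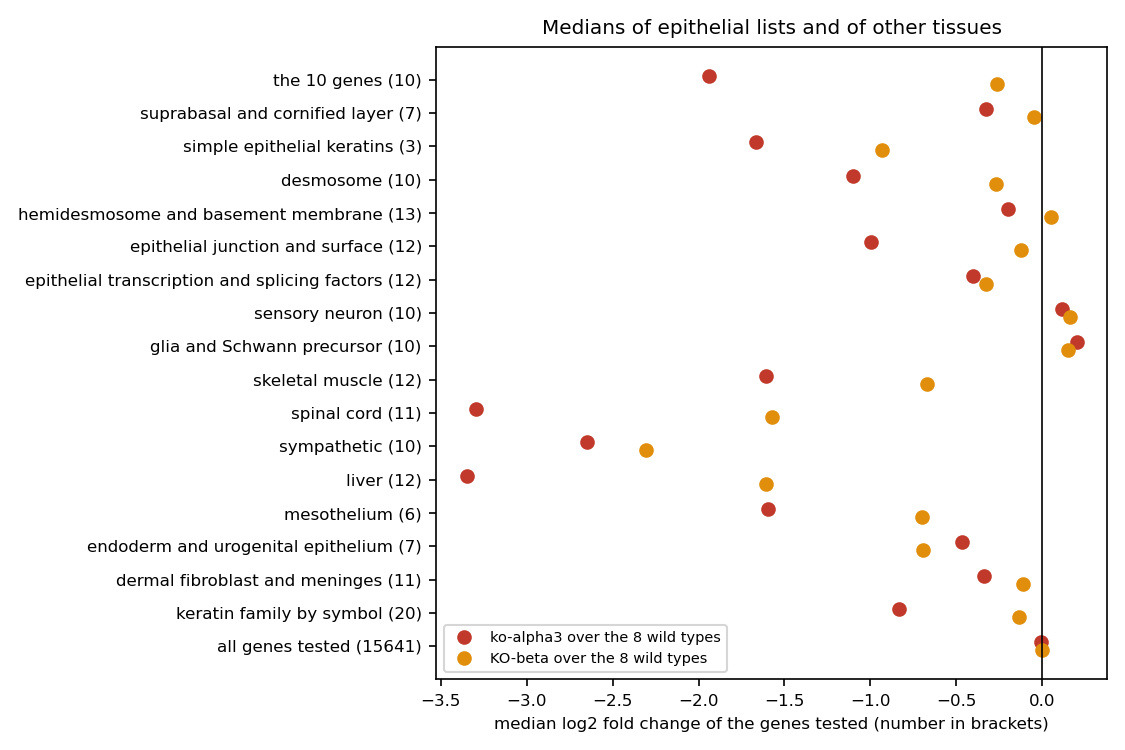
Median log2 fold change of the genes tested in each list (number tested in brackets), for ko-alpha3 over the 8 wild types and KO-beta over the same wild types. The 10 genes had a median of -1.94 in ko-alpha3, between the medians of skeletal muscle (-1.61) and sympathetic genes (-2.65), and spinal cord and liver lay lower still.

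In ko-alpha3, lists of tissues other than sensory neurons and glia had negative medians, as the epithelial lists did in the plot of list medians. The counts below stand against 6.63% of all genes lower and 4.21% higher at an unadjusted p of 0.05. Of 12 skeletal muscle genes tested, 11 were lower in ko-alpha3 at an unadjusted p of 0.05 (median of -1.61), with summed levels of 31.1 to 245 CPM in ko-alpha3 and 96.2 to 1042 CPM in the wild types. Of 11 spinal cord genes, 10 were lower (median of -3.30), with sums of 2.59 to 8.23 CPM in ko-alpha3 and 7.62 to 106 CPM in the wild types. Of 12 liver genes, 11 were lower (median of -3.35), with sums of 16.8 to 130 CPM in ko-alpha3 and 23.5 to 5269 CPM in the wild types. The highest was WT-beta 399, and the next wild type, wt-alpha3 79, had 447 CPM. Sums in wt-alpha3 45, 54 and 55 (79.5, 84.3 and 121 CPM) and in WT-beta 410 (23.5 CPM) lay within the ko-alpha3 range.

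Sympathetic genes had 4 of 10 lower (median of -2.65; sums of 304 to 524 CPM in ko-alpha3 and 373 to 874 CPM in the wild types), and mesothelial genes 4 of 6 (-1.60; 11.9 to 96.7 CPM in ko-alpha3 and 24.6 to 128 CPM in the wild types). Most of the mesothelial sum was Bnc1, at 43.5 ± 38.5 CPM in ko-alpha3 and 65.4 ± 39.1 CPM in the wild types (-0.59 ± 0.62). The lists overlap: Krt19 was counted as mesothelial and as a simple-epithelium keratin, and Pax8 as spinal cord and as urogenital. Dermal fibroblast and meningeal genes had 2 of 11 lower (-0.34; 1315 to 2447 CPM in ko-alpha3 and 2101 to 3334 CPM in the wild types), and endodermal and urogenital genes 2 of 7 (-0.47; 10.4 to 14.7 CPM in ko-alpha3 and 13.4 to 24.4 CPM in the wild types). Apart from Cdx2, at 0 in all ko-alpha3 libraries, no gene of these lists was at 0 throughout that group. Cdx2 was also at 0 in all wt-alpha3 libraries and had 3 reads in all. Sensory neuron and glial genes had 0 lower and 3 and 4 of 10 higher, with medians of 0.12 and 0.20. In KO-beta, the medians were -0.67 for skeletal muscle, -1.58 for spinal cord, -2.31 for sympathetic and -1.61 for liver genes, with 0 of 12, 3 of 11, 1 of 10 and 0 of 12 lower at an unadjusted p of 0.05, against 1.63% of all genes. The median of the 10 genes in KO-beta was nearer to that of all genes, at -0.26. The part of these other tissues in the values of the 10 genes was not tested.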

How the data were processed

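Poly(A) RNA-seq of 16 libraries was analysed, 4 per group. The authors deposited raw read counts per gene symbol, which were used, and normalised counts, which were not. The submitters' processing notes name TopHat2 2.0.10 and HTSeq 0.6.1p1, together with mm10 and, in no stated order, bcl2fastq 2.17.1.14, DESeq2 1.6.3 and cutadapt. Which annotation and strand setting were used is not given there. Counts were tested with edgeR 4.0.16 (R 4.3.3): TMM, filterByExpr with a minimum count of 10 and a minimum total of 15, and the quasi-likelihood test, 2-sided, with Benjamini-Hochberg adjustment over 15641 genes and a threshold of 0.05. The SE is the log2 fold change divided by the root of F. A fit with 3 groups (ko-alpha3, KO-beta, the 8 wild types) gave the knockout comparisons, and a fit with 4 groups the rest. DESeq2 1.42.0 (no outlier replacement, Cook's cutoff or independent filtering) and limma-voom 3.58.1 were alternatives, as were other scalings, filters and sets of libraries. The scripts were tested on simulated data. RPKM used exon-union lengths from GENCODE vM21, and shared stretches its transcripts. Totals were 19682595 to 26873361 reads, which leaves values under 1 CPM with large counting error.

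The set of 10 genes and all lists were chosen with earlier results of these data known. The text names all 10 genes, up to 4 genes of lowest p from each epithelial list and the 5 genes most like Krt5 and Krt8. Cdh1's likeness, Ivl, Krt6a, Krt10, Krt16, Cdx2, Jup, Tfap2a, Elf3, Bnc1 and Pax8 were named after their values were seen. Identity between keratin proteins was not computed here.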

Additional observations from a re-analysis of the deposited data

Results flagged for a closer look

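Within groups of 4 and within the 8 wild types, each of the 10 genes was checked for a library far from the others, which gave 50 checks and 4 results; chance gives about 1 in 20 groups. All 4 were in ko-alpha3. Krt5 was highest in library 50, at 4.33 CPM, with the next at 0.796 CPM. Krt15 was highest in the same library, at 1.21 CPM, with the next at 0.398 CPM. Krt17 was lowest in library 42, at 0.200 CPM or 5 reads, with the next at 0.334 CPM. Trp63 was lowest in library 81, at 0.0835 CPM or 2 reads, with the next at 0.354 CPM.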

How the results depend on the processing

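The 9 genes other than Cdh1 stayed lower in ko-alpha3 under every alternative run. The number of the 10 called in ko-alpha3 was 0 in edgeR, 5 in DESeq2 and 0 to 3 when 1 library was left out, with 3 only without ko-alpha3 50. In the other 3 comparisons it was 0 throughout. No paired analysis was possible because the groups share no replicate number. Cdh1 in ko-alpha3 turned to 0.071 (log2) without ko-alpha3 42 and 81 and wt-alpha3 45 and 79, a set chosen after seeing the data. In KO-beta some values changed sign for every gene but Trp63, also for Krt18, Krt8 and Krt14 (-1.01, -0.93 and -0.80 in the main fit). Without wt-alpha3 45 and 79 and WT-beta 399 and 401, the 4 wild types with the highest sums of the 9 genes, they were 0.10 (Krt5), 0.20 (Krt14), 0.27 (Krt15), 0.77 (Krt17), 0.64 (Krt8), 0.41 (Krt18), 0.53 (Epcam) and -0.15 (Cdh1). With WT-beta alone as the comparison they were 0.021 (Krt15), 0.39 (Krt17) and -0.26 (Perp). Without the 4 libraries lowest in Cdh1 they were 0.048 (Krt15), 0.53 (Krt17), -0.14 (Perp), 0.042 (Epcam) and -0.0028 (Cdh1). Krt17 was 0.13 in limma-voom, Cdh1 -0.018 with a Y-linked term, and Perp -0.0022 with DESeq2 size factors, -0.021 with library size alone, -0.0038 without a filter, -0.0029 with a mean of at least 1 CPM and -0.0034 in DESeq2. Between wt-alpha3 and WT-beta, the Y-linked term gave -2.01 (Krt5), -1.09 (Krt15) and 0.34 (Epcam); all wt-alpha3 and no WT-beta libraries had Y-linked reads, so line and that term cannot be told apart there. Without the 4 wild types the values were -0.36 (Krt17), 0.039 (Trp63) and 0.44 (Cdh1). Without the 4 libraries lowest in Cdh1 they were -0.31 (Krt5), -0.16 (Krt15), -0.61 (Krt17) and 0.55 (Cdh1). Leaving out 1 library, KO-beta values that changed sign ran from -0.32 to 0.068 (Krt15), -0.47 to 0.093 (Krt17), -0.090 to 0.19 (Perp) and -0.32 to 0.028 (Epcam). Between the wild types they ran from -0.022 to 0.59 (Krt5), -0.81 to 0.40 (Krt14), -2.01 to 0.37 (Krt8), -1.46 to 0.83 (Krt18), -0.54 to 0.25 (Epcam) and -0.79 to 0.11 (Cdh1). The causes were not tested. Trp63 was not tested with a mean of at least 1 CPM. Most ko-alpha3 values rest on under 30 reads.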

Other observations

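Of the 52 keratin genes found by symbol, 6 had no read in any library and 20 passed the filter. In ko-alpha3, 18 of the 20 had a negative log2 fold change and 8 had an unadjusted p under 0.05, against 6.63% of all genes tested, with a median of -0.83. Of these 8, 6 are the keratins of the set of 10 and the others are Krt7 and Krt19, described above. By edgeR 0 of the 20 were called, against 0.00639% of all genes. Among keratins outside the epidermal and simple-epithelium lists, Krt25 had -0.81 ± 0.46, Krt222 had -0.31 ± 0.38 and Krt80 had -0.31 ± 0.70. Krt24 had 0.19 ± 0.45 and Krt28, an inner root sheath keratin of the hair follicle, 0.15 ± 0.29. Krt20, a keratin of gut epithelium and Merkel cells, averaged 0.393 ± 0.182 CPM in ko-alpha3 and 1.25 ± 1.88 CPM in the wild types. Its log2 fold change was -1.67 ± 0.93. The highest wild type, in WT-beta, had 5.85 CPM, and wt-alpha3 averaged 0.591 ± 0.362 CPM. The choice of these genes followed a look at their values.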
